A study of Mus musculus with 16 samples.

Results

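The genes described here are 8 transcription factors of the endoderm, taken by symbol: the forkhead factors Foxa1, Foxa2 and Foxa3, the GATA factors Gata4, Gata5 and Gata6, and the nuclear receptors Hnf4a and Hnf4g. They are 8 of the 55487 genes listed for each organoid line, and all 8 passed the filter on low counts, so that they are also 8 of the 15573 genes tested. The study profiled RNA of 16 organoid cultures of pancreatic ductal adenocarcinoma, 7 grown from primary tumors and 9 from metastases, which came from 6 mice. Organoids are epithelial cultures that grow as small bodies in a basement membrane gel. The labels call all mice KPC, a model in which mutant alleles are commonly switched on by a Cre recombinase under the Pdx1 promoter, and give the strain of every line as C57BL6/J; alleles, ages and sequencing batches were not among the labels used here. Every line grew in the same medium, with Matrigel, EGF, FGF10, Noggin, R-spondin, gastrin, nicotinamide, N-acetylcysteine, B27 and A83-01, an inhibitor of TGF-beta type I receptors.

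Mouse 1 gave 1 tumor line and a liver metastasis line, and mice 2, 3 and 4 each gave 1 tumor line and 1 line from a peritoneal metastasis. Mouse 5 gave 1 tumor line and metastasis lines from diaphragm and lung, and mouse 6 gave 2 tumor lines (tumor replicates 6 and 7) and lines from liver, diaphragm and ovary. Several lines thus share an animal, and each line gave 1 library, so p-values measure the spread between these lines.

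FOXA proteins open compacted chromatin and let other factors bind, and they act with GATA4 and GATA6 when the foregut and its buds, pancreas and liver, form from endoderm. HNF4A stands in a network with FOXA factors that drives genes of hepatocytes, gut epithelium and pancreas. In human pancreatic cancer GATA6 and HNF4A are known as marks of the classical epithelial subtype, while GATA5 and HNF4G are better known from gut epithelium.

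Some libraries stood apart. Total expected counts ran from 24624420 to 49965492 per line. Counts linked to ribosomal RNA took 72.7% of metastasis replicate 4 (mouse 5, diaphragm) and 29.9% of tumor replicate 2, and otherwise 0.0463% to 0.588% of tumor lines and 0.0185% to 18.5% of metastasis lines. Tumor replicate 6 held Foxa1, Gata4 and Gata5 at levels of the metastasis lines, as given below, so results are also given without it. The line was thus picked by its values of these 3 genes, and leaving it out favors a larger difference in them. Their smaller p-values without it are therefore no separate evidence. The lines carried epithelial markers: Epcam, Cdh1, Krt8, Krt18 and Krt19 summed to between 3524 and 7145 CPM (counts scaled to the size of the library) in every line, and none of these 5 genes differed between the stages. Pancreatic duct markers summed to 940.7 to 2911 CPM, with 2 of 5 higher and 1 lower in metastasis lines, and their part in the results below was not tested. Markers of acinar and islet cells, hepatocytes, lung epithelium and fibroblasts summed to at most 1.75 CPM in any line, and the defining genes Cpa1, Ins1, Ins2, Nkx2-1 and Lum were at 0 in all 16. Immune and endothelial lists reached 5.09 and 6.29 CPM, with most of the counts in Cd68 and Tie1. The ovary list reached 6.6 CPM, with Fshr at 0 in every line. The mesothelium list ran from 164.4 to 1135 CPM, nearly all of it Msln, which pancreatic cancer cells are known to express, while Wt1 reached at most 0.313 CPM.

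The sequences in front of the transcription starts of Foxa2 and Foxa1 are shown first, because Foxa2 was read from more than 1 start and Foxa1 had the largest estimated difference of the 8 genes. They are the 250 bases before RefSeq starts on build GRCm38.p6, printed 5′ to 3′ on the strand of the gene, with capitals for matches on either strand to the GATA motif AGATAA, the forkhead motif TGTTTAC or the HNF4 motif CAAAGTCCA.
Foxa2, upstream start, chr2:148046970-148047219, minus strand: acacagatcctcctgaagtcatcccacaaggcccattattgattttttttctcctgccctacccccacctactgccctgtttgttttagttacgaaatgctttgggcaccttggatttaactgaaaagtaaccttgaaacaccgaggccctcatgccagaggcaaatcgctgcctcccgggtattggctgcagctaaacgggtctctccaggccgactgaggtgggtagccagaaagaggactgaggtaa
Foxa2, downstream start, chr2:148045949-148046198, minus strand: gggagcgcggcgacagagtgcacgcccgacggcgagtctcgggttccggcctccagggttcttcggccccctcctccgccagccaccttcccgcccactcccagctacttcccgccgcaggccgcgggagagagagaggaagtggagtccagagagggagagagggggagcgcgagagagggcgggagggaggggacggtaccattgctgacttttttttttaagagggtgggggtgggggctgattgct
Foxa2, most downstream start, chr2:148045465-148045714, minus strand: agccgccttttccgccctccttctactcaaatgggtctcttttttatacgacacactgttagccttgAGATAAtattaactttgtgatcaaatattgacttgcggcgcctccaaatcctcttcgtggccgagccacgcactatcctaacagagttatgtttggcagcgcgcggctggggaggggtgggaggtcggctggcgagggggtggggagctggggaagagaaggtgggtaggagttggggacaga
Foxa1, chr12:57546112-57546361, minus strand: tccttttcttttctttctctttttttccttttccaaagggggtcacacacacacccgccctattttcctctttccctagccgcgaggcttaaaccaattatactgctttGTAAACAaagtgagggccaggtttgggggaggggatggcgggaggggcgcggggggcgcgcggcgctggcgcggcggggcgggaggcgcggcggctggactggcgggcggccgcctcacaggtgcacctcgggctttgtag

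RefSeq windows were found for 5 members. Among 32851 RefSeq windows of the same length, 9.99% held AGATAA, 3.17% TGTTTAC and 0.383% CAAAGTCCA. The windows at the upstream and downstream Foxa2 starts held none of the 3. The most downstream Foxa2 window held AGATAA 183 bases before the start. The Foxa1 window held GTAAACA, the reverse complement of TGTTTAC, 141 bases before the start. Of the windows not printed, the one at the upstream Hnf4a start, known as P2, held AGATAA 52 bases before it, and those at the downstream Hnf4a start, known as P1, and of Gata5 and Foxa3 held none. These matches are descriptions of the letters in the windows. Gata4, Gata6 and Hnf4g are named only.

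The first comparison asked which of the factors differed by stage within mice, metastasis against primary tumor. Of the 8 genes, 4 passed the threshold (edgeR quasi-likelihood test with a term for each mouse, Benjamini-Hochberg adjusted p under 0.05 over all 15573 genes): Foxa1, Gata5 and Hnf4g were higher in metastasis lines and Foxa2 was lower. Over all genes tested, 2571 passed, or 16.5%, with 6.59% higher and 9.92% lower. The 8 genes had a median log2 fold change of 0.48, against -0.02 for all genes tested. Each family thus held members with estimates of opposite sign. Counts of mice given below compare the mean log2 CPM of a mouse's metastasis lines with that of its tumor lines. In bulk RNA, fewer cells with a transcript and less of it per cell cannot be told apart.

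**Figure D1:**
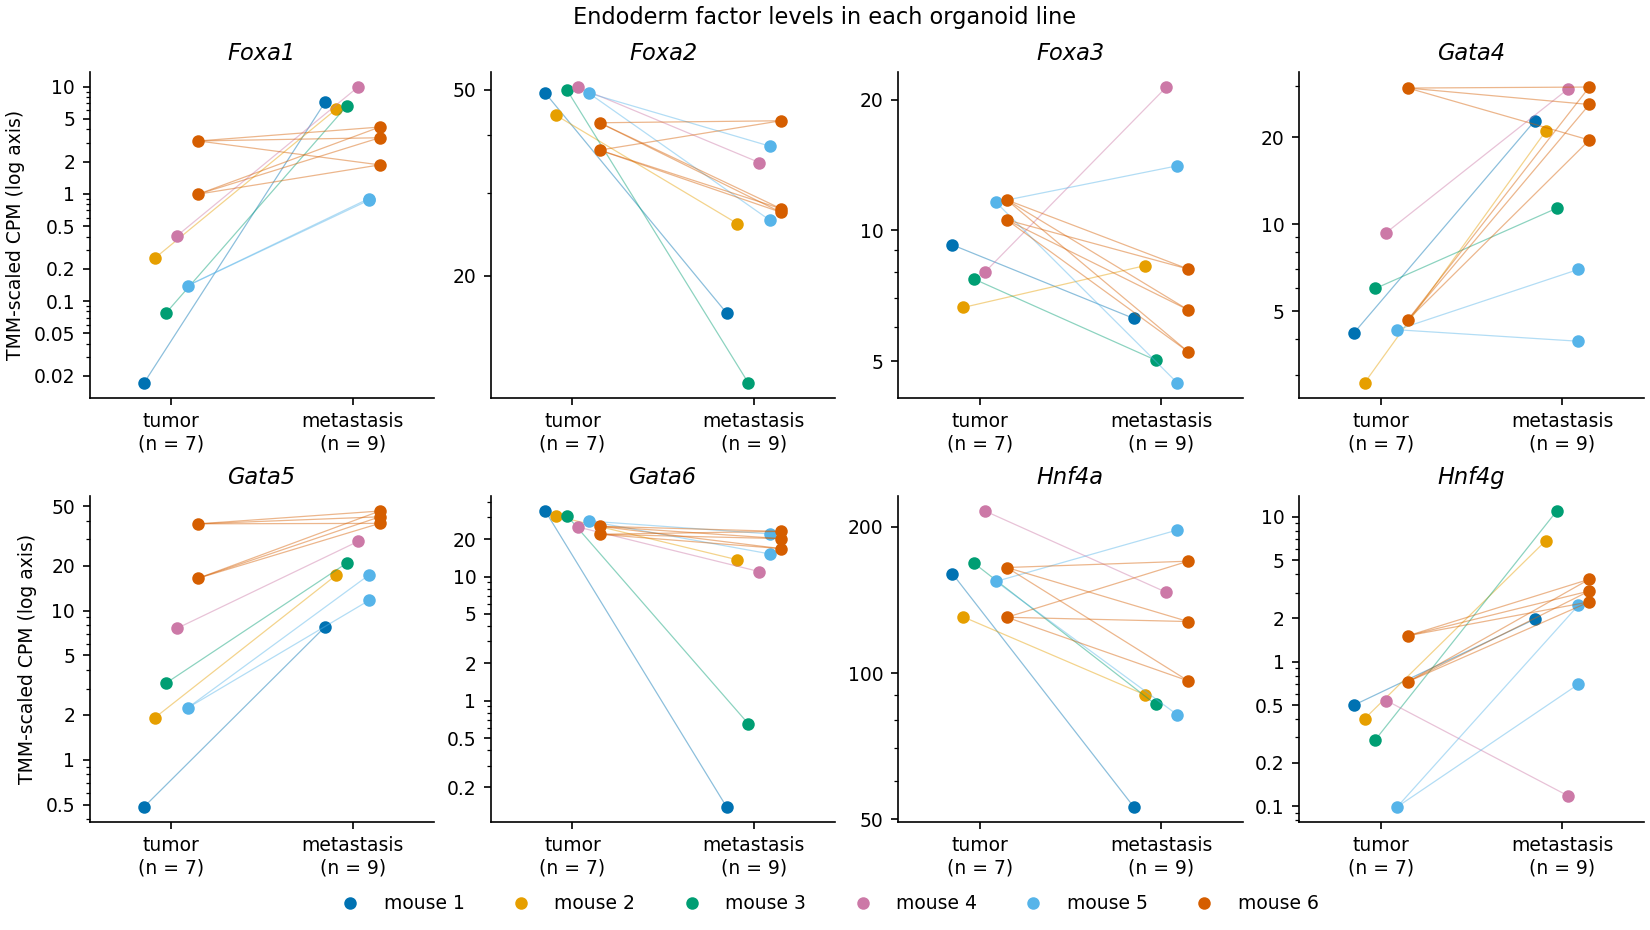
CPM on TMM-scaled library sizes (log axis) of each endoderm factor in the 7 tumor and 9 metastasis lines; each point is a line, colored by mouse, and thin lines join lines of the same mouse. By the mean log2 CPM of each mouse's lines, Foxa1 and Gata5 were higher in metastasis in all 6 mice and Foxa2 and Gata6 lower, although the mouse 6 liver line lay between its tumor lines for Foxa1 and above both for Foxa2, and in mouse 6 (orange-red) the tumor lines lay closest to their metastasis lines for Foxa1 and Gata5.

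Foxa1 lies on chromosome 12 from 57540628 to 57546916 on the minus strand. Its level in tumor lines was 0.0172, 0.252 and 3.12 CPM (lowest, median and highest of 7), and in metastasis lines 0.874, 4.20 and 9.93 CPM (of 9). The groups overlapped through tumor replicates 6 and 7, at 3.12 and 0.995 CPM, the metastasis lines of mouse 5, at 0.904 and 0.874 CPM, and the liver line of mouse 6, at 1.86 CPM. Tumor replicates 1 to 5 held between 1 and 21 expected counts of Foxa1, so their levels rest on few reads, while tumor replicate 6 held 159. The means were 0.715 ± 1.11 CPM (SD, n = 7) and 4.58 ± 3.14 CPM (SD, n = 9), and the log2 fold change was 3.30 (SE 0.91, edgeR adjusted p = 0.0303), with metastasis means higher in 6 of 6 mice. Leaving out tumor replicate 6, a line picked in part for its high Foxa1, gave 3.88 (adjusted p = 0.00384). The call was lost without any 1 of tumor replicates 1 to 5 or metastasis replicates 1, 2, 3 and 9, where adjusted p ran from 0.0523 to 0.0769, and without tumor replicate 2 and metastasis replicate 4 together (adjusted p = 0.111). It was also lost without all lines of mouse 5 (edgeR adjusted p = 0.0897). With the share of ribosomal RNA counts as a covariate the adjusted p was 0.0544. In mice 1 to 4, which gave 1 line per stage, leaving out either line drops the mouse from the paired comparison. Here and below, losses without either line of such a mouse are thus 1 result.

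Foxa2, the pioneer factor that marks endoderm from its origin on, lies on chromosome 2 from 148042877 to 148046969 on the minus strand. It was measured at 37.1, 49.2 and 50.7 CPM (lowest, median and highest) in tumor lines and at 11.8, 27.3 and 42.9 CPM in metastasis lines. The ranges overlapped through the mouse 6 liver line, the highest metastasis line at 42.9 CPM, the mouse 5 diaphragm line at 37.8 CPM and the 2 mouse 6 tumor lines at 37.1 and 42.5 CPM. The means were 46.1 ± 5.03 CPM (SD, n = 7) and 27.9 ± 9.79 CPM (SD, n = 9). This was a log2 fold change of -0.83 (SE 0.22, edgeR adjusted p = 0.0244), with metastasis means lower in 6 of 6 mice, although the mouse 6 liver line lay above both tumor lines of its mouse. The fall was widest in mouse 3, at -2.08, and mouse 1, at -1.56, and smallest in mouse 6, at -0.31 (log2 CPM). With tumor replicate 6 left out the adjusted p was 0.0112. The call was lost without tumor replicate 1, 2 or 5 or metastasis replicate 1 or 9, where adjusted p ran from 0.0533 to 0.0636, and without the libraries richest in ribosomal RNA (adjusted p = 0.0624). It was also lost without all lines of mouse 5, with the highest edgeR adjusted p of the alternatives, 0.0745.

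Foxa3, a forkhead factor best known from liver and gut, lies on chromosome 7 from 19013284 to 19023538. Tumor lines held 6.65, 9.26 and 11.8 CPM (lowest, median and highest) and metastasis lines 4.45, 6.56 and 21.4 CPM. The metastasis lines spread on both sides of the tumor lines, with the mouse 4 peritoneal line highest. The log2 fold change was -0.25 (SE 0.29, edgeR adjusted p = 0.588), with metastasis means higher in 2 mice and lower in 4, and without mouse 6 the estimate turned to 0.030.

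Expressed per length of transcript, in the deposited TPM (transcript abundance scaled to a fixed total per library), the FOXA family can be described by its total and its makeup. The sum of the 3 genes was 37.6 ± 6.30 TPM in the 7 tumor lines and 23.1 ± 8.48 TPM in the 9 metastasis lines (mean ± SD). Foxa2 made up 82.3 ± 4.75% of it in tumor lines and 70.1 ± 11.3% in metastasis lines. The share of Foxa1 was 0.853 ± 1.39% and 8.20 ± 6.53%, reaching 19.7% in the peritoneal line of mouse 3. Foxa3 held 16.8 ± 3.74% and 21.7 ± 6.96%. These shares are descriptions and were not tested. Ribosomal RNA counts lower every TPM value of a library, and so the sums, but leave shares within a family untouched. In CPM per kilobase, on TMM-scaled library sizes, the FOXA sum was 29.9 ± 2.31 in tumor lines and 21.1 ± 6.92 in metastasis lines (mean ± SD). Shares computed from CPM per kilobase rest on the same counts and lengths. They are therefore the same up to rounding and are no separate check.

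**Figure D2:**
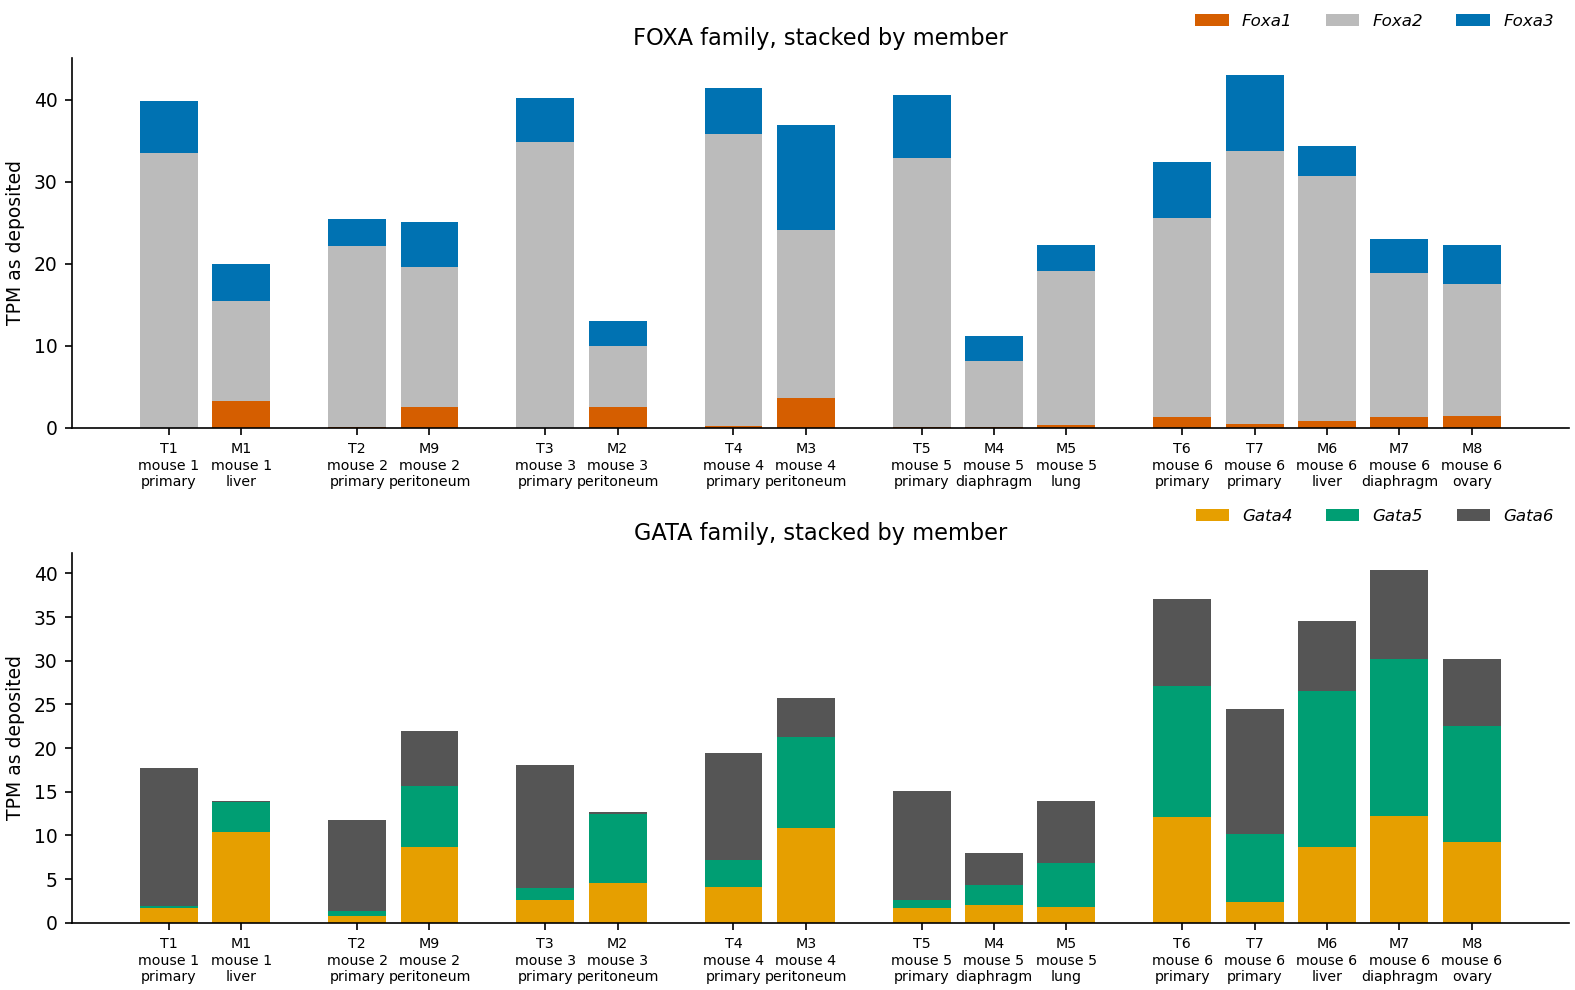
Deposited TPM (vertical axis) of the FOXA genes (upper panel) and GATA genes (lower panel), stacked by member, in each tumor (T) and metastasis (M) line, ordered by mouse with the site under each bar. Gata6 formed the largest part of the GATA bar in 6 of 7 tumor lines, Foxa1 was the smallest part of the FOXA bar in all 16 lines, and the bars of metastasis replicate 4, with 72.7% ribosomal RNA counts, are lowered by that share.

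Gata5, a factor of gut endoderm and endocardium, lies on chromosome 2 from 180325133 to 180334699 on the minus strand. Its lowest, median and highest levels were 0.483, 3.25 and 38.2 CPM in tumor lines and 7.82, 20.9 and 46.5 CPM in metastasis lines. Mouse 6 stood above the rest in both stages, with its tumor lines at 38.2 and 16.5 CPM and its metastasis lines at 42.5, 46.5 and 38.4 CPM, and these tumor lines account for the overlap of the groups, as every other tumor line was at 7.58 CPM or less. The means were 10.0 ± 13.6 CPM (SD, n = 7) and 25.7 ± 14 CPM (SD, n = 9). Gata5 had a log2 fold change of 2.09 (SE 0.41, edgeR adjusted p = 0.00803), with metastasis means higher in 6 of 6 mice, by 0.75 on the log2 scale in mouse 6 and by 1.93 to 3.90 in the others. It kept its call without any single line or mouse, and was not called without the mouse term (log2 fold change 1.36, adjusted p = 0.195). An antisense gene, Gata5os, overlaps it, with at most 41 expected counts in any line.

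Gata4, which acts beside Gata6 in the budding pancreas and in stomach, lies on chromosome 14 from 63198922 to 63271692 on the minus strand. It was measured at 2.82, 4.67 and 29.6 CPM (lowest, median and highest) in tumor lines and at 3.93, 21.04 and 29.9 CPM in metastasis lines. All tumor lines but replicate 6 were at 9.35 CPM or less, and 7 of 9 metastasis lines were above that, the exceptions being both lines of mouse 5. The means were 8.71 ± 9.45 CPM (SD, n = 7) and 18.99 ± 9.51 CPM (SD, n = 9). The mouse 5 lung line, at 3.93 CPM, lay below its tumor line, at 4.31 CPM. The log2 fold change was 1.20 (SE 0.41, edgeR adjusted p = 0.0639), with metastasis means higher in 6 of 6 mice, and did not pass the threshold. It was 1.71 without tumor replicate 6 (adjusted p = 0.00429), a line picked in part for its high Gata4. DESeq2 on all lines gave 1.21 (adjusted p = 0.0106).

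Gata6, the GATA factor most closely tied to pancreas formation, lies on chromosome 18 from 11052064 to 11085635 on the plus strand. The lowest, median and highest levels were 21.9, 28.1 and 33.8 CPM in tumor lines and 0.139, 15.2 and 23.2 CPM in metastasis lines. The liver line of mouse 1 and the peritoneal line of mouse 3 were nearly without it, at 0.139 and 0.651 CPM from 8 and 25 expected counts, while the other 7 metastasis lines held 10.98 to 23.2 CPM. The means were 28 ± 4.11 CPM (SD, n = 7) and 13.7 ± 8.48 CPM (SD, n = 9). Its log2 fold change was -1.68 (SE 0.78, edgeR adjusted p = 0.152), which did not pass, although the estimate was negative in 6 of 6 mice. Per mouse the differences were very uneven, at -7.52 in mouse 1 and -5.48 in mouse 3 against -0.25 to -1.19 in mice 2, 4, 5 and 6 (log2 CPM). An antisense transcript gene, 1010001N08Rik, overlaps its start, with at most 57 expected counts. Because the strand setting of the counting is not known, reads of overlapping antisense genes cannot be told apart from those of Gata5 and Gata6.

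With all lines kept, no member had groups that did not overlap, against 1.12% of all genes tested. When tumor replicate 6 was left out, Gata6 was the 1 member whose groups did not overlap, with the lowest remaining tumor line at 25.1 CPM and the highest metastasis line at 23.2 CPM, against 7.17% of all genes. Tumor replicate 6 held the least Gata6 of the tumor lines, 21.9 CPM, so leaving it out favors this separation, which is no separate evidence.

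The summed GATA level differed by less than 1 SD between the stages, at 20.5 ± 8.28 TPM in the 7 tumor lines and 22.4 ± 11.1 TPM in the 9 metastasis lines (mean ± SD). Gata6 made up 69.5 ± 22.2% of it in tumor lines and 24.4 ± 17% in metastasis lines. Gata5 held 15.4 ± 15.03% and 40.3 ± 11.8%, and Gata4 held 15.1 ± 8.97% and 35.3 ± 17.2%. Gata6 was at 27.0% in tumor replicate 6, within the range of the metastasis lines, which ran from 0.576% to 51.1%. In the liver line of mouse 1, 74.7% of the GATA level was Gata4, and in the peritoneal line of mouse 3, 61.9% was Gata5. So the 2 lines that were nearly without Gata6 differed in which of the other members was highest. These shares were not tested.

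Hnf4a, the nuclear receptor at the center of the hepatocyte and gut programs, lies on chromosome 2 from 163506808 to 163572910 on the plus strand. Levels ran through 130.2, 160.0 and 215.3 CPM (lowest, median and highest) in tumor lines and 53.1, 96.4 and 196.8 CPM in metastasis lines. The metastasis lines reached both below and into the tumor range, with the mouse 1 liver line lowest and the mouse 5 diaphragm line, the one richest in ribosomal RNA, highest. The means were 160.5 ± 28.7 CPM (SD, n = 7) and 116.5 ± 46.8 CPM (SD, n = 9). The mouse 5 diaphragm line (196.8 CPM) lay above its tumor line (154.3 CPM). The mouse 6 diaphragm line (169.8 CPM) lay above both of its tumor lines (164.8 and 130.2 CPM). The log2 fold change was -0.55 (SE 0.22, edgeR adjusted p = 0.106), with metastasis means lower in 6 of 6 mice. It passed without metastasis replicate 4 (-0.64, adjusted p = 0.0436) and with the ribosomal RNA share as a covariate (-0.72, adjusted p = 0.0458).

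Hnf4g, the close relative of Hnf4a that is best known from intestine, lies on chromosome 3 from 3508030 to 3658052 on the plus strand. It was measured at 0.0993, 0.500 and 1.51 CPM (lowest, median and highest) in tumor lines and at 0.119, 2.59 and 10.97 CPM in metastasis lines. The peritoneal lines of mice 2 and 3 were highest, at 6.85 and 10.97 CPM, while the peritoneal line of mouse 4 was the lowest metastasis line and lay below its own tumor line, from 5 expected counts against 28. The means were 0.581 ± 0.455 CPM (SD, n = 7) and 3.60 ± 3.37 CPM (SD, n = 9). It had a log2 fold change of 2.31 (SE 0.73, edgeR adjusted p = 0.0496), with metastasis means higher in 5 of 6 mice. That call lies at the threshold. It was lost without any 1 of 13 lines, some of them pairs of the same mouse, with adjusted p from 0.0569 to 0.125. The call was lost too without all lines of mouse 5 (edgeR adjusted p = 0.1345) or of mouse 6 (0.0893). Among single lines left out, it held only without tumor replicate 4 (0.0161), metastasis replicate 3 (0.0166) or tumor replicate 6 (0.0301). Tumor replicate 4 and metastasis replicate 3 are the pair of mouse 4. Hnf4a made up 99.6 ± 0.323% of the HNF4 level in TPM in tumor lines and 96.0 ± 4.09% in metastasis lines. In metastasis lines Hnf4g reached at most 13.2%, in the peritoneal line of mouse 3. These shares include the TPM of a short annotated Hnf4a fragment, described with the starts below.

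**Figure D3:**
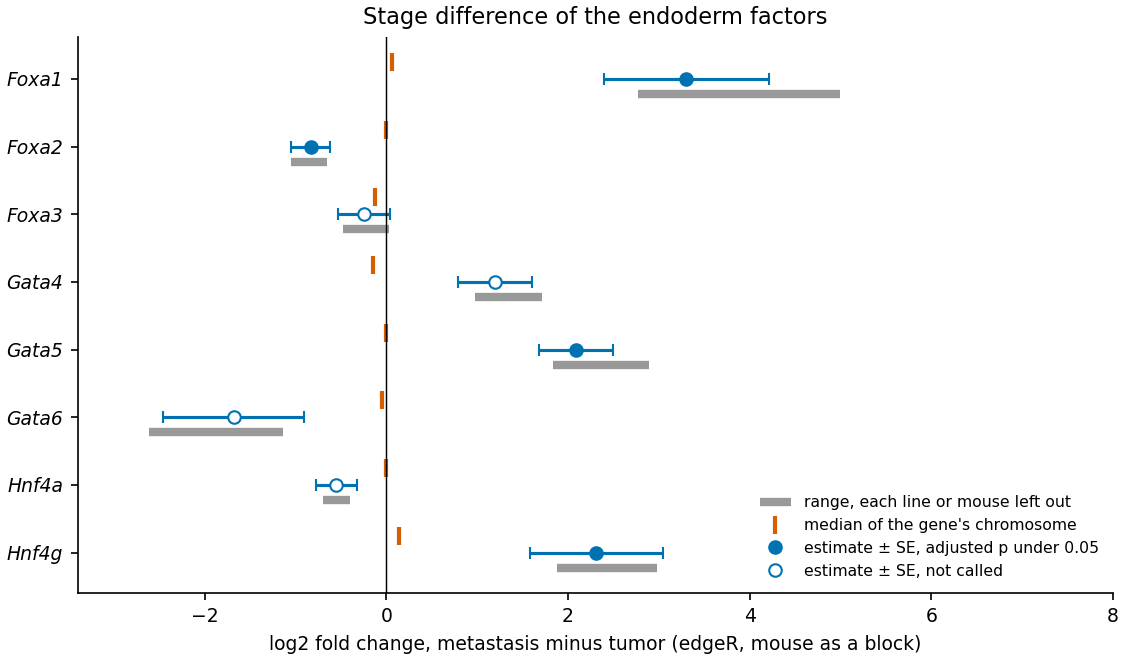
Log2 fold change, metastasis minus tumor, of each factor (points, with the standard error; filled where adjusted p was under 0.05), the range of the estimate when each line or mouse was left out (grey bars) and the median log2 fold change of the genes on the same chromosome (orange ticks). Chromosome medians lay between -0.15 and 0.14, and Foxa3 is the only factor whose grey bar crosses 0.

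The median log2 fold change of genes on the member's chromosome was 0.07 for Foxa1, -0.15 for Gata4, -0.05 for Gata6, -0.12 for Foxa3 and 0.14 for Hnf4g. For Foxa3, whose own estimate was -0.25, the chromosome median had the same sign and was not small beside it. In single mice the widest were 0.56 for chromosome 3 in mouse 4, where Hnf4g had a difference of -1.83, and -0.36 for chromosome 14 in mouse 1, where Gata4 had 2.44. In mouse 2 the median of chromosome 7 was -0.35, while Foxa3 had 0.32.

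Set in order of TPM, which allows comparison between genes, tumor lines held Hnf4a at 87.5 ± 20.3, Foxa2 at 30.9 ± 5.40, Gata6 at 12.8 ± 2.13 and Foxa3 at 6.36 ± 1.88 TPM (mean ± SD, n = 7). Gata5 at 4.14 ± 5.44 and Gata4 at 3.62 ± 3.87 TPM followed, then Hnf4g at 0.351 ± 0.277 and Foxa1 at 0.299 ± 0.454 TPM. The first 3 levels were each apart from the next by more than either SD, while Foxa3, Gata5 and Gata4 did not differ beyond their spread, nor did Hnf4g and Foxa1. Metastasis lines held Hnf4a at 50.8 ± 15.97 and Foxa2 at 16.4 ± 6.87 TPM (n = 9). Gata5 at 9.45 ± 5.88, Gata4 at 7.62 ± 3.84, Gata6 at 5.31 ± 3.48 and Foxa3 at 4.98 ± 3.02 TPM came next and overlapped within 1 SD of their neighbors. Hnf4g at 1.98 ± 1.96 and Foxa1 at 1.80 ± 1.27 TPM were again lowest. Ribosomal RNA counts lowered TPM in more of the metastasis lines than of the tumor lines, so these TPM values order genes within a stage and do not compare the stages. The Hnf4a level on this scale rests in large part on a short annotated fragment, described with the starts below. That fragment took 48.0% of Hnf4a isoform TPM in tumor lines and 45.25% in metastasis lines. Its share of expected counts was 5.48% and 4.95%.

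The share of Foxa2 transcripts read from an upstream start was also compared between the stages. The annotated upstream start lies 1021 bases before the downstream one, and the windows before both are printed above. The transcripts from it took 0.411%, 14.5% and 22.98% (lowest, median and highest) of the gene's isoform TPM in tumor lines, and 0%, 1.87% and 4.19% in metastasis lines. The means were 13.8 ± 8.46% (SD, n = 7) and 2.21 ± 1.62% (SD, n = 9), and tumor replicate 6 was the tumor line inside the metastasis range, as the other 6 held at least 6.30%. The complementary share, from the downstream starts, was 12.1 percentage points higher in metastasis lines (SD 7.80 over mice), higher in 6 of 6 mice. The exact two-sided sign-flip test gave p = 0.031, the smallest that 6 mice allow, and 0.156 after Benjamini-Hochberg adjustment over 5 start groups; no single share can pass that adjustment with 6 mice. The main setting joined starts within 5000 bases, where Foxa2 has a single start group and gives no share. The Foxa2 share comes from the alternative setting, with starts more than 500 bases apart kept separate. The difference without tumor replicate 6 was 13.8 points with the same adjusted p.

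The main transcript from the upstream start stood at 4.53 ± 2.98 TPM in the 7 tumor lines and 0.423 ± 0.337 TPM in the 9 metastasis lines (mean ± SD), and was listed at 0 in tumor replicate 6. The main one from the downstream start averaged 25.3 ± 3.23 and 15.6 ± 6.45 TPM. The 2 transcripts encode proteins of 459 and 465 residues, which differ by 6 residues. RSEM estimated these values by sharing reads between isoforms, and only reads over the first exons tell them apart, so the error of a single line's percentage is not known.

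**Figure D4:**
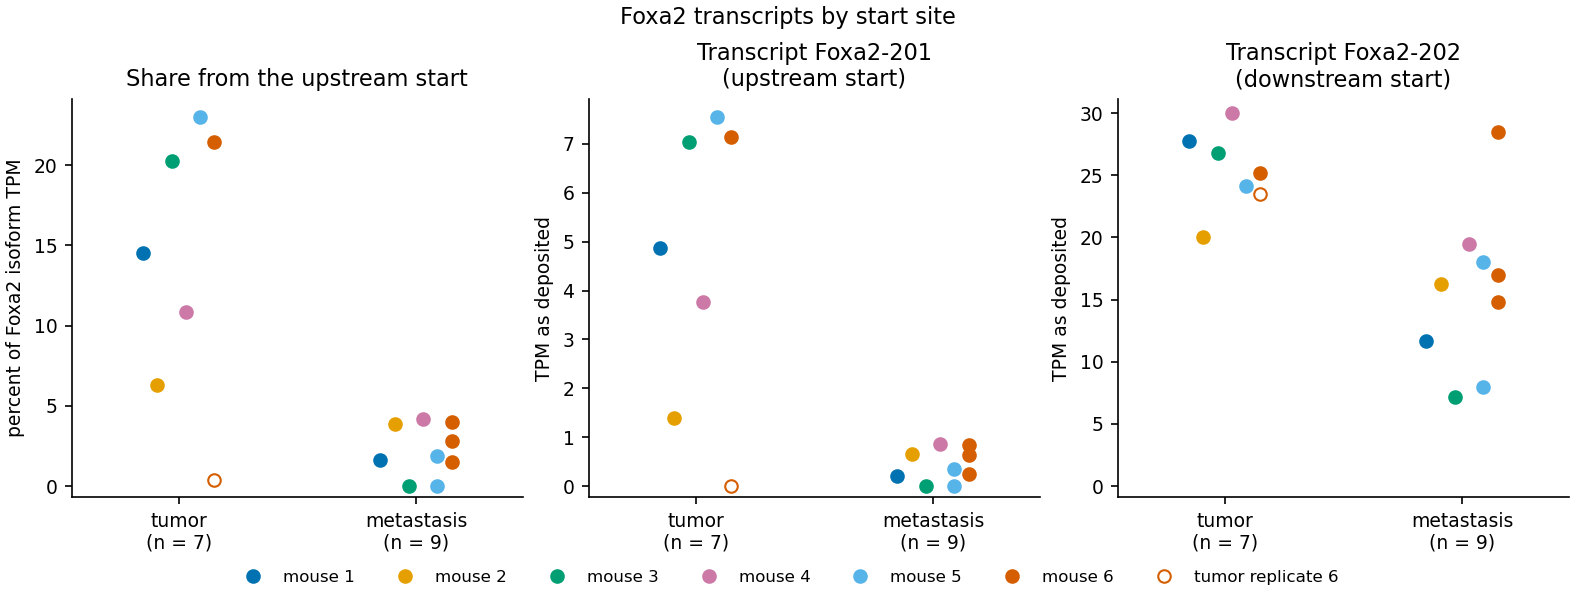
Percent of Foxa2 isoform TPM from the upstream start (left), and deposited TPM of the main transcript from the upstream (middle) and the downstream start (right), by line and mouse. The open point is tumor replicate 6, which at 0.411% lies with the metastasis lines (at most 4.19%), below the other tumor lines (at least 6.30%).

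For Hnf4a, whose P2 and P1 starts lie 40380 bases apart and are known to be used in different tissues, the upstream transcript took 48.0 ± 0.972% of isoform TPM in the 7 tumor lines and 45.3 ± 3.27% in the 9 metastasis lines (mean ± SD). The difference over mice was -2.12 percentage points (SD 3.24), lower in 5 of 6 mice. The exact sign-flip p was 0.188, with the same adjusted value in the main setting and 0.234 in the 500-base setting used for Foxa2. That transcript is a short annotated fragment, and as a share of expected counts it held 5.48 ± 0.168% and 4.95 ± 0.583%, so these percentages are not shares of promoter use. For Gata4, the main start held 83.5 ± 12.8% and 68.2 ± 22.6% (adjusted exact p = 0.188 in the main setting, 0.208 in the 500-base setting). The lower mean rested in part on metastasis replicate 4, at 9.09% from 54 expected counts of the gene. Foxa1, Gata6 and Hnf4g had fewer than 20 expected counts in some lines and were not tested for starts.

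Metastasis sites could be compared only weakly, because lung and ovary gave 1 line each and peritoneal lines came from mice with no other metastasis line. Foxa1 averaged 7.59 ± 2.04 CPM in 3 peritoneal lines (SD), and was at 7.24 and 1.86 CPM in the liver lines, 3.34 and 0.904 CPM in the diaphragm lines, 4.21 CPM in the ovary line and 0.874 CPM in the lung line. Hnf4a was at 169.8 and 196.8 CPM in the diaphragm lines, above the other 7 metastasis lines, which held 53.1 to 146.5 CPM. In the test of sites (edgeR F test), 0 genes passed (0% of those tested, 266 at an unadjusted p under 0.05), and of the members Hnf4a alone had an unadjusted p under 0.05 (0.0178, adjusted 1.00). In the test of peritoneal against other metastases, 0 genes passed (0%, with 1086 at an unadjusted p under 0.05). There the stage difference of Foxa1 was 3.16 log2 units larger in mice with peritoneal metastases (SE 1.48, edgeR adjusted p = 0.729).

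Levels of the factors were also compared between animals. In the F test of the mouse terms, 24 genes passed, or 0.154%, and 0 of the 8 members, with 1 at an unadjusted p under 0.05. That member was Gata5, with a p of 0.00100 and an adjusted p of 0.0968 from edgeR. The 5 lines of mouse 6 held 16.5 to 46.5 CPM of it. Over the stages, the differences were smallest in mouse 6 for Foxa1, Foxa2, Gata5, Gata6 and Hnf4a. In mouse 6 the log2 difference of Foxa1 was 0.73, against 2.34 to 6.86 in the other 5 mice.

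Across the 16 lines, the members formed sets with correlated levels, given here as descriptions over lines that share mice and stages. On log2 CPM, Foxa1 correlated with Gata5 at r = 0.82 and with Gata4 at 0.81, and Foxa2 with Gata6 at 0.84 and with Hnf4a at 0.71. Gata6 and Hnf4a correlated at 0.76, Gata4 and Gata5 at 0.75, and Foxa1 and Foxa2 at -0.72. Computed without tumor replicate 6, these 7 values were 0.82, 0.81, 0.83, 0.71, 0.76, 0.73 and -0.74. Foxa3 had its highest value with Hnf4a, at 0.54.

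The 3 genes whose log2 CPM over the 16 lines correlated most highly with each member were as follows. For Foxa1 they were Frmd5 (r = 0.94), Ociad2 (0.93) and Cnep1r1 (0.93), and for Foxa2 Kxd1 (0.93), Stxbp6 (0.92) and Hspg2 (0.88), which encodes perlecan of the basement membrane. For Foxa3 they were Hsbp1, Wdr59 and Fhod1, each at r = 0.81 and each on chromosome 8, while Foxa3 itself is on chromosome 7. Gata4 had Fbln1 (0.90), Rnase4 (0.90) and Lpcat4 (0.88), and Gata5 had Mst1r, a receptor tyrosine kinase (0.92), Sh3pxd2a, a scaffold of invadopodia (0.92), and Rasl11b (0.91). Gata6 had Sfi1 (0.92), Gpalpp1 (0.87) and Msra (0.87). Hnf4a had Rtraf (0.89), Sprr2a3 (0.88) and Mapre2 (0.86). Hnf4g had Trim31 (0.93), Hopx (0.91) and Muc13, a transmembrane mucin of gut epithelium (0.90).

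Other endoderm and foregut factors included genes with larger estimated differences than any of the 8 members. Of 20 listed, 12 were tested, of which 3 rose and 3 fell, with a median log2 fold change of 0.22, beside the 16.5% of all genes called. Onecut1, a factor of pancreatic duct and liver development, stood at 14.4 ± 7.80 CPM in the 7 tumor lines and 0.0339 ± 0.0328 CPM in the 9 metastasis lines (mean ± SD), a log2 fold change of -8.42 (SE 0.67). Nr5a2, a nuclear receptor of acinar and liver cells, had -6.12 (SE 0.83), and Hhex, a homeobox factor of foregut buds, -3.09 (SE 0.52). Cdx2, the master factor of intestinal identity, rose from 25.4 ± 15.3 to 72.5 ± 18.0 CPM (log2 fold change 1.62, SE 0.36, edgeR adjusted p = 0.0135), and Klf4 by 1.06 (SE 0.26), each higher in 5 of 6 mice. Isx, an intestinal homeobox factor, rose from 0.322 ± 0.463 to 17.1 ± 23.3 CPM (log2 fold change 5.00, SE 1.23, edgeR adjusted p = 0.0197), higher in 6 of 6 mice. That call was lost without tumor replicate 2 or 5 or metastasis replicate 9, and the edgeR adjusted p was 0.0766 at most over the alternatives run. Pdx1, the factor of pancreatic identity, had 0.57 and did not pass (edgeR adjusted p = 0.0636). Klf4 lost its call without tumor replicate 3 or 5 or metastasis replicate 2, with an edgeR adjusted p of at most 0.0579 over the alternatives. With tumor replicate 6 left out, 5 rose and 4 fell, in a fit that called 24.7% of all genes (3910 of 15802; 11.3% higher and 13.5% lower).

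Of 13 listed partners of the factors, 12 were tested. Of these, 0 were higher and 1 lower, with a median of 0.09, beside 16.5% of all genes called. The 1 that passed was Nr0b2, also called SHP, a corepressor of nuclear receptors, at 1.02 ± 0.820 CPM in tumor lines (SD, n = 7) and 0.0329 ± 0.0571 CPM in metastasis lines (SD, n = 9). Its log2 fold change was -4.80 (SE 0.82, edgeR adjusted p = 0.00494). Zfpm1 and Zfpm2, the FOG cofactors of GATA proteins, had 0.43 and -1.95 (adjusted p = 0.392 and 0.0529). These counts were 2 and 4 without tumor replicate 6, where 24.7% of all genes were called.

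Of 27 known target genes of HNF4 and related factors, 13 were tested. Of these 13, 2 rose and 5 fell, with a median log2 fold change of -0.30, beside 16.5% of all genes called. The genes that fell are known from hepatocytes and other epithelia: Ambp, the precursor of alpha-1-microglobulin, with -9.25 (SE 0.66), Ttr, the thyroid hormone carrier transthyretin, with -6.12 (SE 0.73), Dpp4, a membrane peptidase, with -5.67 (SE 0.73), Agt, angiotensinogen, with -5.39 (SE 0.54), and Ugt2b34, a glucuronosyltransferase, with -1.49 (SE 0.44). Ambp was at 112.0 ± 88.5 CPM in tumor lines (SD, n = 7) and 0.344 ± 0.792 CPM in metastasis lines (SD, n = 9). Agt was low in both stages, at 0.817 ± 0.810 and 0.0254 ± 0.0445 CPM, so its fold rests on few reads. Those that rose were Apob, the apolipoprotein of chylomicrons and very low density lipoprotein, with 1.86 (SE 0.50), and Lgals4, a gut galectin, which is outside the 6 named by lowest p. Vil1 and Cdh17, of the intestinal brush border and junctions, had 0.37 and 1.28 (edgeR adjusted p = 0.236 and 0.0559). Apob passed in 15 of 33 alternatives: it was lost without the mouse term (edgeR adjusted p = 0.419, the highest), with the ribosomal RNA covariate, and without any 1 of tumor replicates 1 to 5 or metastasis replicates 1, 2, 3, 4 and 9. Ugt2b34 passed in 17 of 33 (edgeR adjusted p at most 0.0917), and was lost without any 1 of tumor replicates 1 to 5 or metastasis replicates 1, 2, 3, 6 and 9. Without tumor replicate 6, 5 rose and 5 fell, beside 24.7% of all genes called.

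Of 23 known FOXA and GATA targets of foregut and gut, 18 were tested. Of these 18, 1 rose and 2 fell, with a median log2 fold change of 0.82, beside 16.5% of all genes called. Whether any list differed as a set from all genes was not tested. Slc40a1, the iron exporter ferroportin, stood at 35.0 ± 39.8 CPM in the 7 tumor lines and 96.9 ± 32.1 CPM in the 9 metastasis lines (mean ± SD), a log2 fold change of 1.74 (SE 0.35, edgeR adjusted p = 0.00908). Creb3l1, a factor of secretory cells, fell by 2.89 on the log2 scale (SE 0.76, edgeR adjusted p = 0.0263), and Tff2, a trefoil peptide of gastric mucus, fell by 2.80 (SE 0.86, edgeR adjusted p = 0.0444). Creb3l1 passed in 20 of 33 alternatives (adjusted p at most 0.0997 by edgeR), and was lost with the ribosomal RNA covariate and without any 1 of tumor replicates 1, 2, 3 and 5 or metastasis replicates 1, 2 and 9. Tff2 passed in 13 of 33 (adjusted p at most 0.148 by edgeR), and was lost without the mouse term, on counts summed per mouse and stage, with the covariate, and without any 1 of tumor replicates 1, 3, 4, 5 and 7 or metastasis replicates 1, 2, 3, 4, 5 and 8. The gastric markers Cldn18, Anxa10 and Muc5ac had estimates of 1.53, 1.90 and 1.24 with wide spread between lines, and none passed (edgeR adjusted p = 0.380, 0.0931 and 0.397). Gkn1, Gkn2, Gkn3 and Vsig1 had 1.48, 2.06, 1.83 and 0.82 and did not pass. Tff1 and Ctse had 0.49 and -0.37, each higher in 3 mice and lower in 3, and did not pass either, while Tff2 fell, as given above. Cldn18 ran from 0.462 to 558.8 CPM in tumor lines and from 0.240 to 565.4 CPM in metastasis lines. Without tumor replicate 6, 2 rose and 2 fell, beside the same 24.7%. Whether any of these genes is bound by the 8 factors in these lines was not measured.

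**Figure D5:**
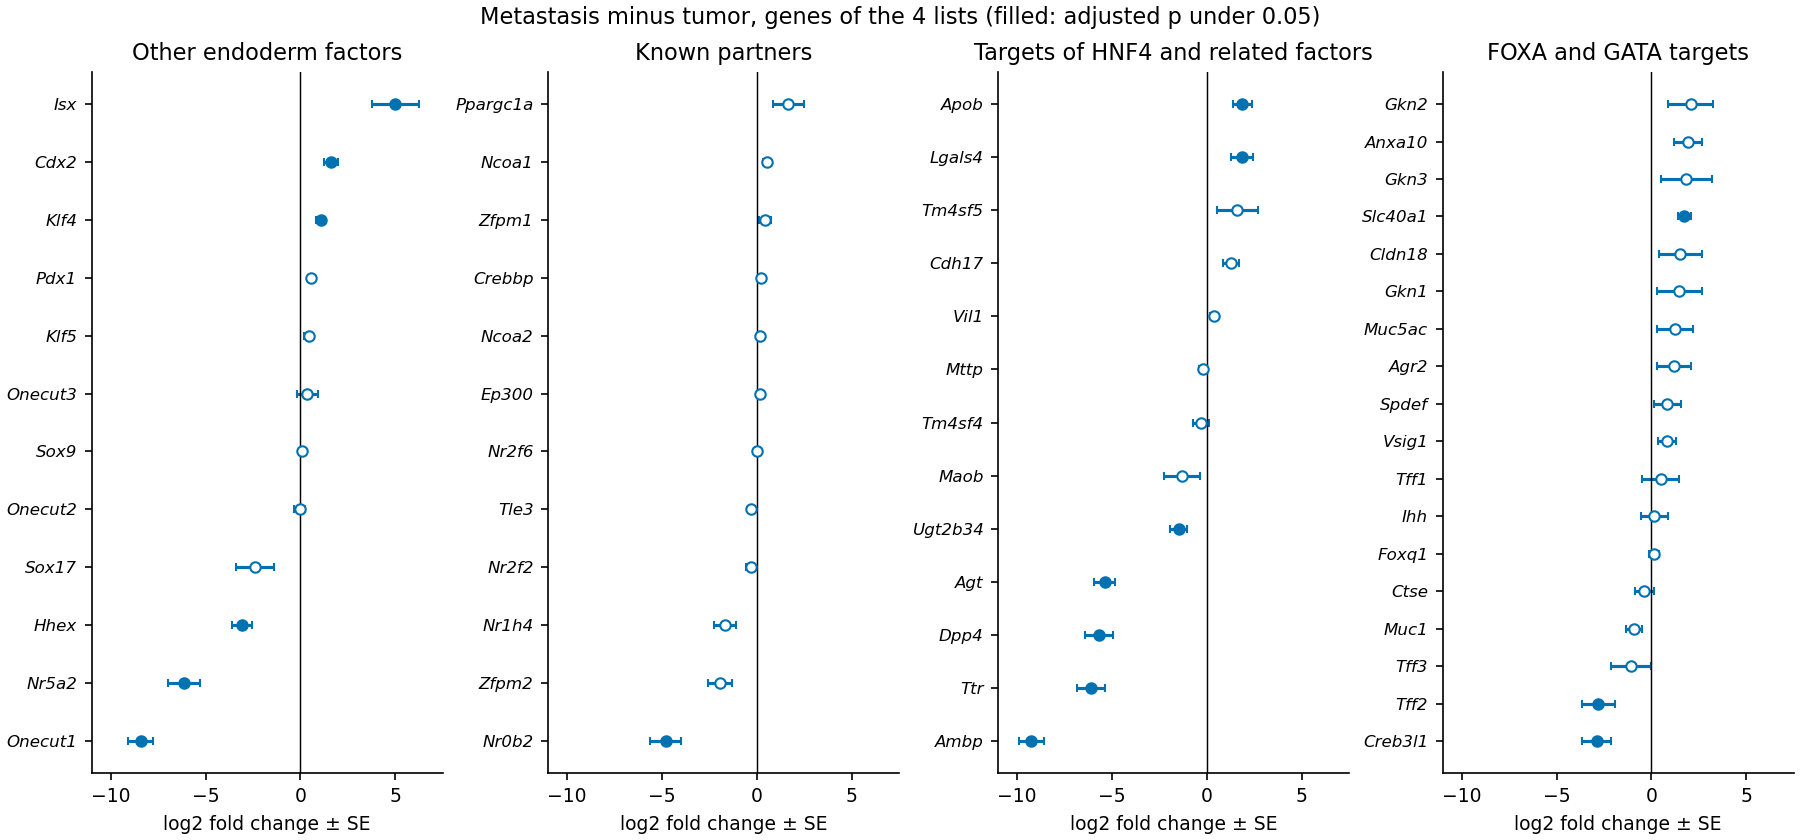
Log2 fold change, metastasis minus tumor, with its standard error for the tested genes of 4 lists; filled points had an adjusted p under 0.05. Onecut1 at -8.42 and Ambp at -9.25 lie farthest to the left, and the list of partners holds 1 filled point, Nr0b2.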

How the data were processed

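RNA of 16 organoid lines was sequenced as total RNA depleted of ribosomal RNA with a stranded kit, per the labels' protocols. Per the submitters' processing notes, FastQC 0.11.8, STAR 2.6.0c and RSEM 1.3.1 were used with genome build GRCm38.p6; the annotation and strand setting are not given in the sources used here. Per the file headers, the deposited gene and isoform tables hold expected counts, which are estimates, TPM, effective lengths and, for isoforms, the percent of a gene's transcripts.

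Expected counts were rounded and tested with edgeR 4.0.16's quasi-likelihood test (R 4.3.3; TMM scaling, filterByExpr by stage, a term per mouse, Benjamini-Hochberg adjustment over 15573 genes, threshold 0.05). The fit uses all 16 lines, so lines share 1 estimate of the spread. CPM values are on TMM-scaled library sizes. The mouse label pairs tumor and metastasis lines by animal. Start shares were compared within mice with an exact sign-flip test (two-sided), for genes with at least 20 expected counts in every line and starts averaging at least 10%. Identifiers were matched to GENCODE M21, and promoter windows come from RefSeq.

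The 8 genes and all lists were chosen with earlier results of these data known. All 8 were named, with the 3 genes most correlated with each (log2 CPM, prior count 2, mean of at least 1 CPM, more than 100 kb away) and, of each list, the called genes with the lowest p, at most 6. Other genes named were chosen after their values were seen. Some listed genes are not reported here. Alternatives were no mouse term, RLE scaling, other filters, edgeR's robust option, DESeq2 1.42.0, limma 3.58.1 on log2(TPM + 1), counts summed per mouse and stage, 3 handlings of ribosomal RNA, and each line or mouse left out. The start shares without tumor replicate 6 were added after seeing the data. Scripts were tested on simulated data.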

Additional observations from a re-analysis of the deposited data

Results flagged for a closer look

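In tumor replicate 6, a line of mouse 6, 3 members lay far above the other 6 tumor lines. Foxa1 was at 3.12 CPM there and at 0.0172 to 0.995 CPM in the others, Gata4 at 29.6 CPM against 2.82 to 9.35 CPM, and Gata5 at 38.2 CPM against 0.483 to 16.5 CPM. They were the 3 groups with an outlying line among 16 examined (8 genes in 2 stages). All 3 are values of the same line, in genes with correlated levels, so they are not independent. Whether this number exceeds chance was not tested. Tumor replicate 7, from the same mouse, held Foxa1, Gata4 and Gata5 at 0.995, 4.67 and 16.5 CPM. The upstream Foxa2 start also took 0.411% in tumor replicate 6, below the other tumor lines.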

How the results depend on the processing

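Over 33 alternatives of the stage comparison, the estimates of 7 members kept their sign in all, and Foxa3 reversed to 0.030 without mouse 6. Gata5 passed in 32, Foxa2 in 24, Foxa1 in 17, Hnf4g in 10, Gata4 in 5, Hnf4a in 4, Gata6 in 1 and Foxa3 in 0. Such tallies, here and for listed genes, count some fits more than once. In mice 1 to 4, leaving out the tumor line, the metastasis line or the mouse gave nearly the same fit. For mouse 1, the edgeR adjusted p of Foxa1 was 0.0525, 0.0523 and 0.0527. With no replicate block, that is without the pairing by mouse, Gata5 had 1.36 (adjusted p = 0.195) and it changed no other call among the members. Hnf4g lost its call with RLE scaling (2.32), the robust option (2.31), summed counts (2.47), the ribosomal covariate (2.09) and without the 2 libraries richest in ribosomal RNA (1.82). Foxa1 lost it with that covariate (3.29) and without those libraries (3.08), as Foxa2 did without them (-0.90). Gata4 gained a call with no filter on low counts (1.19), DESeq2 (1.21) and summed counts (1.41), Hnf4a with limma (-0.79), summed counts (-0.73) and the covariate (-0.72), and Gata6 with limma (-1.56). Genes called were 3968 with DESeq2, 1184 with limma and 794 without the 2 libraries, where 1 member, Gata5, was called.

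With single lines or mice left out, genes called ran from 766 to 3910 and members called from 1 to 5. Log2 fold changes ran from 2.77 to 4.99 for Foxa1, -1.05 to -0.65 for Foxa2, -0.47 to 0.030 for Foxa3, 0.98 to 1.71 for Gata4, 1.84 to 2.89 for Gata5, -2.61 to -1.14 for Gata6, -0.69 to -0.40 for Hnf4a and 1.88 to 2.98 for Hnf4g.

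The peritoneal difference passed for 2 genes, neither a member, with no filter on low counts. With single lines left out it changed sign for Gata6 (range -2.03 to 0.0041), Hnf4a (-0.52 to 0.015) and Hnf4g (-0.94 to 2.67). The mouse test passed for 565 genes, 1 of them the member Gata5, with no filter, and for 4 to 370 with single lines left out. The cause of these changes was not tested. Low counts of Foxa1 and Hnf4g in tumor lines limit their folds. Agt and Nr0b2 gave no value under the stricter filter on low counts, which removed them. The exact test of start shares could not pass for a single share with 6 mice or fewer, so its p-values say nothing of stability. Among listed genes, Apob, Ugt2b34, Creb3l1 and Tff2 passed in 15, 17, 20 and 13 of the 33 alternatives.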
